A study of Homo sapiens with 2 samples.

Results

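The ATP synthase Fo and stalk genes are 10 nuclear genes, listed by name, that encode the membrane rotor, the peripheral stalk and the small membrane subunits of mitochondrial ATP synthase (complex V). All 10 were found among 19794 protein-coding genes in the annotation. The cells were U251, a line derived from a human glioblastoma, and carried either the control oligonucleotide siControl or siAATF, which depletes the transcriptional cofactor AATF by RNA interference. There was 1 library label and 1 peak list per condition, so no replicate spread could be computed and no difference between conditions was tested. The overall design text of the series names another glioblastoma line, U138, and the cell line given for each sample was used here. NRF-1 was precipitated with an antibody and the chromatin was tagged by Tn5 transposase (ChIPmentation) in both conditions. Peak lists measure neither the identity of the cells nor the amount of AATF left after transfection.

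ATP synthase uses the proton gradient across the inner mitochondrial membrane to make ATP. Protons pass through Fo and turn the c ring, while the peripheral stalk holds the F1 head still so that rotation is turned into ATP synthesis. The transcription factor NRF-1 recognises GC-rich palindromes and acts on many nuclear genes for mitochondrial proteins. ATP5MC1, ATP5MC2 and ATP5MC3 encode the same mature c subunit behind different targeting peptides. ATP5PB (subunit b), ATP5PD (subunit d), ATP5PF (subunit F6) and ATP5PO (the oligomycin sensitivity conferral protein) form the peripheral stalk. ATP5ME, ATP5MF and ATP5MG encode subunits e, f and g, which lie in the membrane, and subunits e and g are known for the pairing of ATP synthases into dimers.

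The sequences under the peaks are given first, since the 10 promoter peaks differed in whether they held a close match to 1 NRF-1 word. The peaks are later divided by the presence of such a match, and its absence does not mean that NRF-1 has no site there. The palindromic NRF-1 core searched was GCGCA joined to its own reverse complement, 10 bases that read alike on both strands. An exact core was present in the promoter peak of ATP5MG alone among the 10 genes. With up to 1 mismatch there were 10 such sites in 6 genes, and the same 10 sites lay inside the peaks of both lists. The sites below are from the hg19 (GRCh37) genome, read 5′ to 3′ on the strand of the gene, with the core in capitals and 10 bases on either side.
ATP5MG, chr11:118272051-118272080, + strand: caggttcaggGCGCATGCGCatttccgctc
ATP5MC2, chr12:54069783-54069812, - strand: tctgtgcgctGCGCACGCGCgcgggacacc
ATP5MC2, chr12:54069890-54069919, - strand: ggcccgggtcACGCATGCGCtgagccttcc
ATP5MC2, chr12:54070153-54070182, - strand: tgtgacgactGCGCATGCTCggaaagggga
ATP5MC3, chr2:176046433-176046462, - strand: gagccggaccGCGCTTGCGCattgagtccc
ATP5PF, chr21:27107466-27107495, - strand: cactcaaagaGCGCATGCGTacagagcaag
ATP5PO, chr21:35288113-35288142, - strand: acgccaacgcGCGCGTGCGCccttgcgcgt
ATP5ME, chr4:668124-668153, - strand: gccgctgacgGCGCATGCGTgcgcccagct
ATP5ME, chr4:668220-668249, - strand: cagcctttgtGCGCGTGCGCctcacgtgac
ATP5ME, chr4:668265-668294, - strand: cgcagcaactGCGCAGGCGCagccgatgat

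Counted from the first base of the core, the mismatches in ATP5MC2 were T6C at the site furthest downstream, G1A in the middle and G9T furthest upstream. The single sites of ATP5MC3, ATP5PF and ATP5PO carried A5T, C10T and A5G. In ATP5ME the substitutions were C10T, A5G and T6G, in the order printed. Because the core is palindromic, A5G on one strand is T6C on the other, and C10T is G1A. Read on either strand, ATP5PO, ATP5ME and ATP5MC2 thus each held 1 site with the same word, and ATP5PF, ATP5ME and ATP5MC2 each held 1 with another. The words of the other 4 sites each occurred once.

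Of the 10 sites, 9 began upstream of the canonical transcript start, 4 of them within 100 bases of it, and the furthest began at -305. The sites of ATP5MC3 and ATP5PO began 14 and 24 bases before the start (positions -14 and -24), and neither was covered by a coding transcript of the genes examined here, which were the members and the coding genes that share their promoter peaks. The middle ATP5MC2 site, at -42, was upstream of the canonical start but in an intron of 4 ATP5MC2 transcripts. The downstream ATP5MC2 site, at 65 bases past the start, lay in an intron. The upstream ATP5MC2 site, at -305, was in the 5′ UTR exon of 4 longer ATP5MC2 transcripts. The ATP5MG core, at -260, began at the first base of a longer ATP5MG transcript and so was in the 5′ UTR exon of 1 transcript. The 3 ATP5ME sites, at -78, -174 and -219, all fell between the canonical starts of ATP5ME and of MYL5. Each also lay in the 5′ UTR exon of 1 MYL5 transcript and in an intron of another. The ATP5PF site, at -270, was inside transcripts of both ATP5PF and GABPA, as intron or 5′ UTR exon.

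The 120 bases before the start are shown for ATP5MC3 and ATP5PO, whose sites adjoin the start, with the site in capitals and the last base next to the canonical start.
ATP5MC3, chr2:176046439-176046558, - strand: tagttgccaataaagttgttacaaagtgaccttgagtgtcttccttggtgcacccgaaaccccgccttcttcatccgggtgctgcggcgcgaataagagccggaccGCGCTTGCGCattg
ATP5PO, chr21:35288109-35288228, - strand: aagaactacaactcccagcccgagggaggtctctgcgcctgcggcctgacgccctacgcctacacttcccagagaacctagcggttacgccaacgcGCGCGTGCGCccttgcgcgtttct

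The other 4 genes, ATP5MC1, ATP5PB, ATP5PD and ATP5MF, had no core with up to 1 mismatch in either list. The closest words had 2 mismatches in ATP5MC1, ATP5PD and ATP5MF and 3 in ATP5PB. Among all coding genes with a promoter peak, a core with up to 1 mismatch was in 23.9% of siControl and 24.0% of siAATF promoter peaks, against 6 of the 10 genes here in each list. The exact core was in 3.89% and 3.96%, against 1 of 10.

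A promoter was taken as 1 kb on either side of any protein-coding transcript start, and a gene was counted if a peak overlapped its promoter by at least 1 base. Every one of the 10 genes was so counted in siControl, and every one again in siAATF, where 61.1% and 60.7% of all coding genes were. The exact Clopper-Pearson 95% interval was 69.2% to 100% in each list, for counting error only. The 10 genes are the whole list and not a random draw, so the interval measures no spread between cells or libraries. Each of the 10 had exactly 1 promoter peak in each list, as did 90.5% and 90.3% of coding genes with a promoter peak. With the threshold raised to a −log10 q of 5, all 10 still counted in both lists, beside 51.5% of all coding genes in each. Here q is the false discovery rate that the peak caller gave the peak against the background of its own library.

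For each gene the siControl and siAATF peaks overlapped. The overlap spanned between 90.3% and 100% of the siControl peak and between 81.8% and 100% of the siAATF peak. Widths ran from 530 to 1467 bp in siControl and from 557 to 1490 bp in siAATF. The siAATF peak was the wider of the pair for 8 of the 10 genes, beside 56.8% of all coding genes with a peak in both lists, with a median width difference of 83 bp here and 15 bp over all of those genes.

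**Figure D1:**
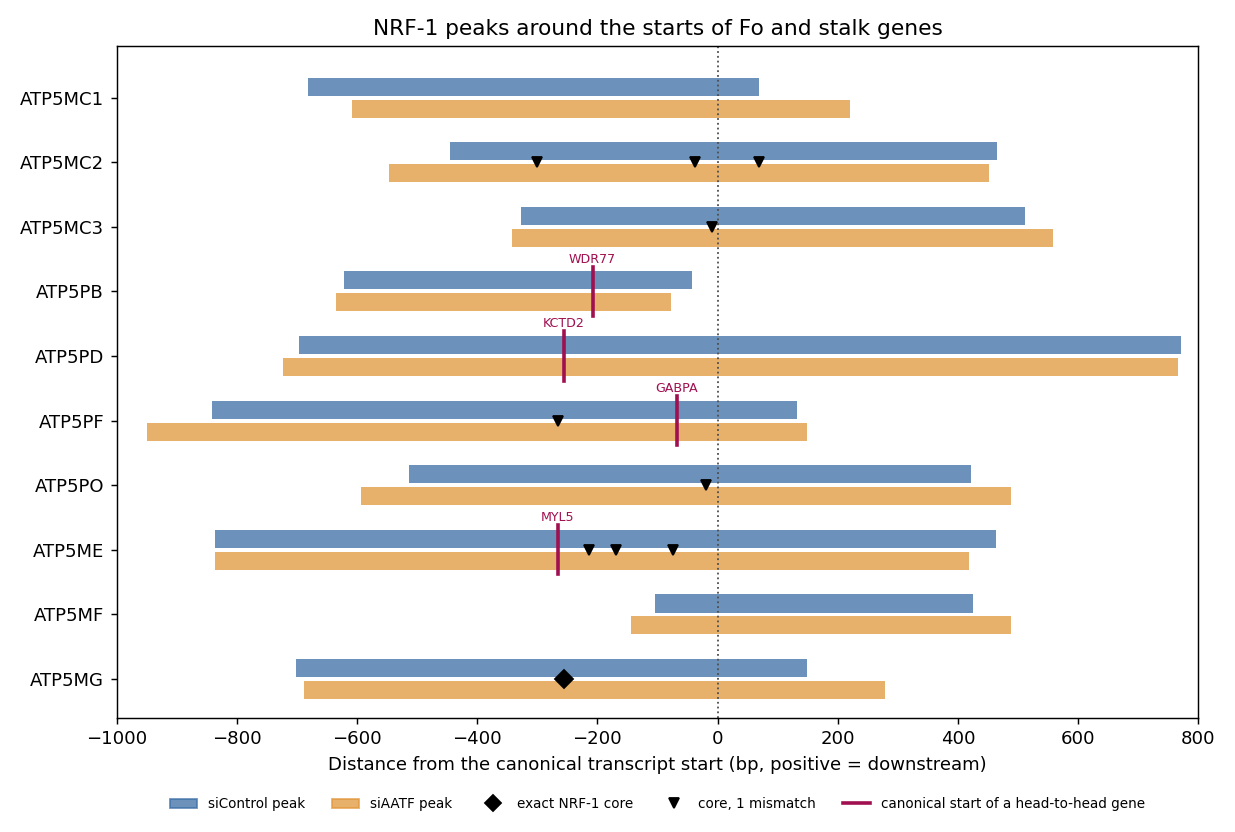
Extent of the promoter peak of each gene in siControl (blue) and siAATF (orange), as distance in bp from the canonical transcript start, positive in the direction of transcription. Diamonds and triangles mark NRF-1 cores with 0 and 1 mismatches, and dark red ticks the canonical start of a head-to-head coding gene. The siControl and siAATF peaks cover the dotted start line for 9 genes and end before it for ATP5PB.

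The map of peaks around the starts shows where the peak lay at each gene. The canonical start was covered in both lists for 9 of the 10 genes, beside 83.5% and 84.6% of coding genes with a promoter peak. The exception was ATP5PB, whose peak ended 43 bases before the start in siControl (edge at -43) and 79 bases before it in siAATF (edge at -79). Peak midpoints ranged from -355 to 160.5 bp from the start in siControl and from -401 to 172 bp in siAATF. ATP5MF stood at the downstream end, with 425 of its 530 bp past the start in siControl. ATP5PF stood at the upstream end, its siControl peak reaching from -841 to 131 bp.

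The strength of the peaks was read on 2 scales. Fold enrichment is the signal over the local background of the same library, which for broad peaks MACS2 averages over the region rather than taking at a summit. The −log10 q, averaged likewise, measures how far the signal departs from that background for the reads present. Each peak was given a percentile rank within its own list on either scale, from 0 for the lowest to 100 for the highest of the 18014 siControl or 18454 siAATF peaks, because values on either scale depend on the library. The number of reads behind the lists was unknown.

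By −log10 q the genes spanned a wide range. The highest siControl values were 84.7 for ATP5PO, 82.7 for ATP5MC2 and 75.3 for ATP5ME, and the same genes had 69.5, 78.0 and 68.5 in siAATF. These 3 promoters ranked between 94.9 and 98.1 in both lists, and 9 of the 10 genes ranked above 50 in each, beside 67.8% and 69.3% of coding genes with a promoter peak. ATP5MC3 followed at 47.1 and 39.0, and ATP5PF at 38.2 and 31.8. ATP5PD, with 26.7 and 25.8, and ATP5MG, with 26.6 and 25.7, were nearly level in each list, and there was no replicate spread by which neighbours in this order could be told apart. ATP5MC1 had 17.4 and 21.3, ATP5MF 15.7 and 9.27, and ATP5PB 7.98 and 8.71. The lowest 2 were thus ATP5MF and ATP5PB in both lists. Over the 10 genes the siControl median was 32.5 and the siAATF median 28.8, and over all coding genes with a promoter peak it was 18.0 and 17.4.

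**Figure D2:**
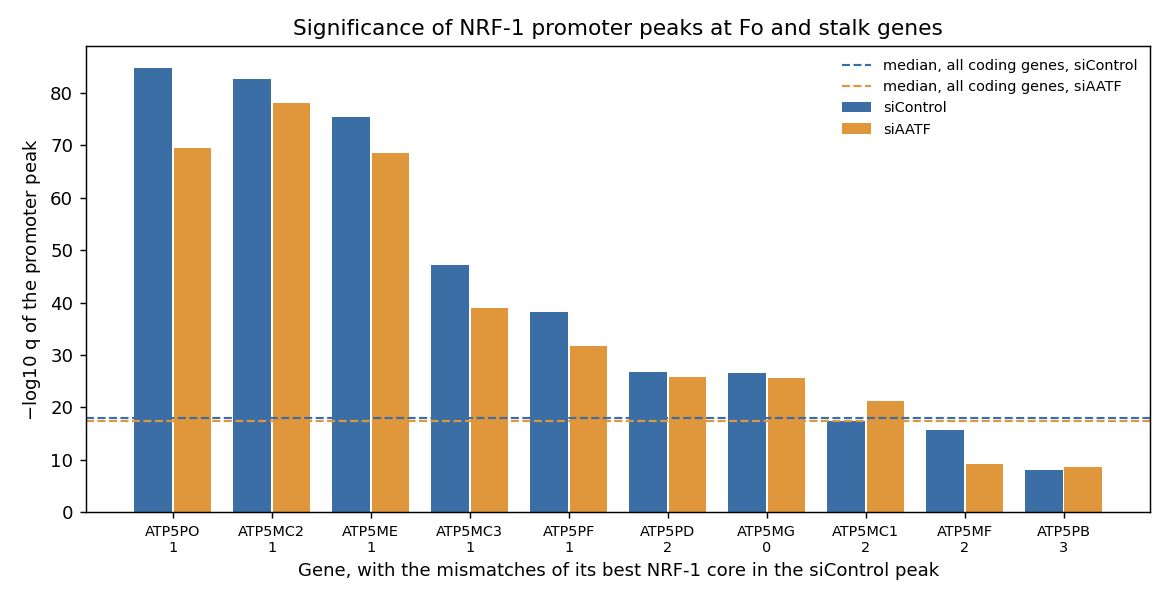
Bars give the −log10 q of the promoter peak of each gene in siControl (blue) and siAATF (orange), 1 list per condition, ordered by the siControl value. Dashed lines are the medians over all coding genes with a promoter peak, and the number under each gene is the mismatches of its best NRF-1 core. The 6 genes with 0 or 1 mismatches lie at 25.7 or higher in both lists and the 4 others at 26.7 or lower.

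The order by −log10 q followed the presence of a core, apart from ATP5PD. The 6 genes with a core of up to 1 mismatch had a −log10 q between 26.6 and 84.7 in siControl, with a median of 61.2, and between 25.7 and 78.0 in siAATF, with a median of 53.8. The 4 genes without one lay between 7.98 and 26.7 in siControl, with a median of 16.6, and between 8.71 and 25.8 in siAATF, with a median of 15.3. ATP5PD, the highest of the 4, was level with ATP5MG. Over all coding genes with a promoter peak the same division gave medians of 66.4 with and 12.3 without a core in siControl, and 60.3 and 11.9 in siAATF. The exact core of ATP5MG went with a lower −log10 q than each of the 5 promoters that had only cores with 1 mismatch. Exact here means identical to the 1 word searched, and how well NRF-1 binds each word was not tested. The word with A5G, or T6C on the other strand, was in ATP5MC2, ATP5ME and ATP5PO, the 3 genes with the highest −log10 q. By fold enrichment the genes with and without a core overlapped further. In siControl the ranks ran from 61.1 to 94.9 with a core (median 88.0) and from 47.2 to 83.8 without (median 64.3). In siAATF they ran from 61.6 to 92.1 (median 77.3) and from 46.7 to 83.8 (median 60.9).

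By fold enrichment, ATP5MC2 and ATP5MC3 of the c ring were high. ATP5MC3 (ENSG00000154518), with its siControl peak at chr2:176045927-176046765, had a fold enrichment of 9.45 in siControl (rank 94.9) and 8.56 in siAATF (rank 92.1). ATP5MC2 (ENSG00000135390, chr12:54069403-54070312) had 9.18 (rank 92.8) and 8.27 (rank 89.0). ATP5MC1 (ENSG00000159199, chr17:46969467-46970217) had 7.24 (rank 69.8) and 7.84 (rank 83.8). It was the lowest of these genes in both lists, and the only one of them with a higher rank in siAATF.

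The peripheral stalk genes spread further. ATP5PO (ENSG00000241837), with its siControl peak at chr21:35287687-35288622, had a fold enrichment of 9.16 (rank 92.8) and in siAATF 7.54 (rank 79.7). ATP5PF (ENSG00000154723, chr21:27107084-27108056) had 7.99 (rank 80.1) and 7.12 (rank 73.6). ATP5PB (ENSG00000116459, chr1:111991465-111992043) had 6.42 (rank 58.7) and 6.62 (rank 66.5). ATP5PD (ENSG00000167863, chr17:73042294-73043760) was the lowest of all 10 genes by this scale in both lists, with 5.64 (rank 47.2) and 5.39 (rank 46.7).

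Among the small membrane subunits, ATP5MG (ENSG00000167283, chr11:118271619-118272469 in siControl) had 8.24 (rank 83.3) and 7.21 (rank 74.8). ATP5ME (ENSG00000169020, chr4:667602-668902) had 6.58 (rank 61.1) and 6.30 (rank 61.6). ATP5MF (ENSG00000241468), at chr7:99063365-99063894 in siControl and chr7:99063302-99063934 in siAATF, had 8.28 (rank 83.8) and 5.88 (rank 55.2). The median rank over the 10 genes was 81.7 in siControl and 74.2 in siAATF, and 9 of 10 ranked above 50 in each list. Over all coding genes with a promoter peak the median was 63.4 and 64.4, and 66.1% and 67.3% ranked above 50.

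The 2 scales placed some genes far apart. ATP5ME ranked 94.9 by −log10 q and 61.1 by fold enrichment in siControl, and ATP5PD 73.6 and 47.2. These 2 genes had the widest of the 10 peaks, 1301 and 1467 bp, at percentiles 94.9 and 97.6 of all siControl widths. ATP5MF, with the narrowest peak of the 10 in siControl, stood the other way, at 61.8 by −log10 q and 83.8 by fold enrichment.

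**Figure D3:**
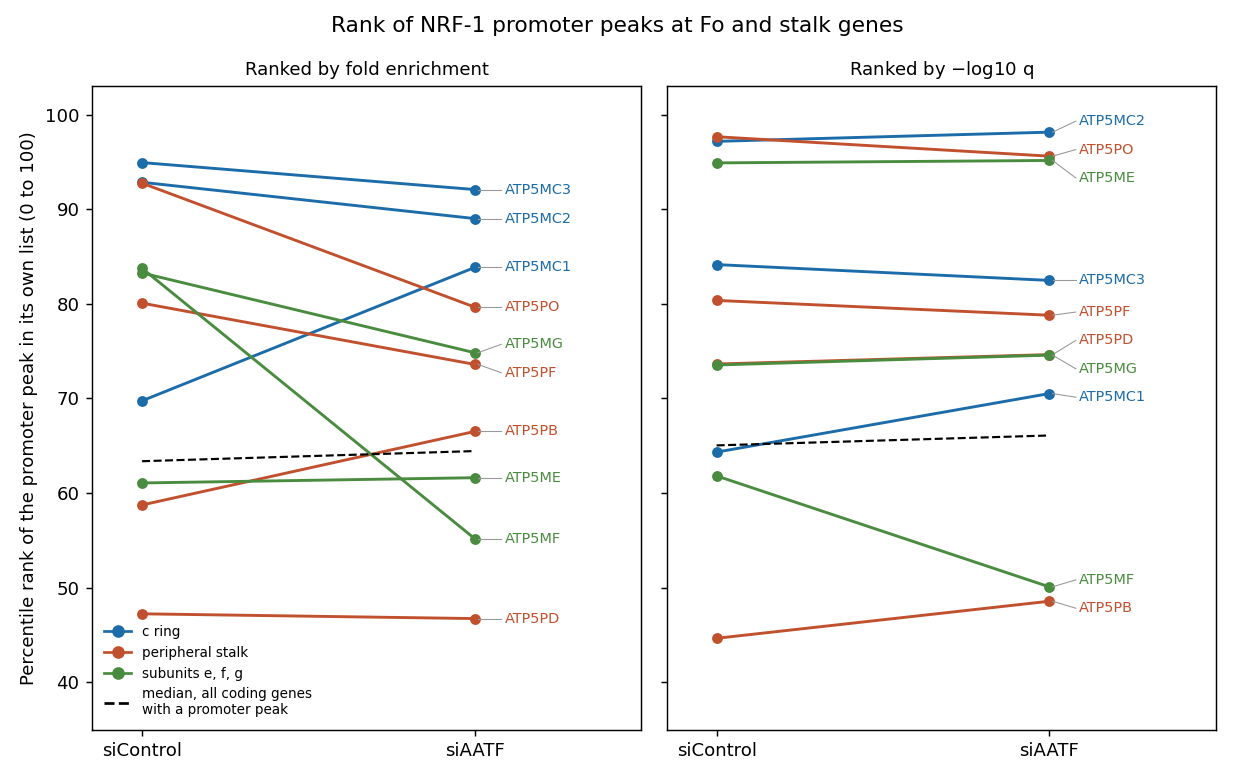
Percentile rank of each promoter peak in its own list, siControl on the left and siAATF on the right of each panel, by fold enrichment (left panel) and by −log10 q (right panel). Each line is 1 gene, coloured by its place in the enzyme, and the dashed line is the median over all coding genes with a promoter peak. The ATP5MF line has the steepest slope in both panels, from 83.8 to 55.2 and from 61.8 to 50.1.

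The comparison of the lists asked whether the standing of these promoters among all NRF-1 peaks differed after AATF depletion. Ranks within a list cannot show a change shared by all peaks. Over all peaks the median fold enrichment was 5.82 in siControl and 5.59 in siAATF, and the median −log10 q was 9.89 and 9.24. All differences are siAATF minus siControl, in points of percentile rank. By fold enrichment the rank was lower in siAATF for 7 of the 10 genes, beside 48.9% of 11774 coding genes with a promoter peak in both lists, and the median difference was -3.34 points, beside 0.156 points over those genes. By −log10 q it was lower for 4 of the 10, beside 44.5%, and the median difference was 0.615 points, beside 0.467. The direction over the genes as a group therefore depended on the scale.

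ATP5MF had the largest difference of the 10 on both scales. Its rank by fold enrichment differed by -28.6 points, and 0.960% of all those coding genes had a difference as low or lower. By −log10 q the difference was -11.7 points, and 4.45% of genes lay as low. It was the only one of the 10 to differ by more than 20 points by fold enrichment, beside 6.55% of all coding genes. None of the 10 differed by so much by −log10 q, beside 2.59%. ATP5MF peaks held no core with up to 1 mismatch, and no replicate gave the spread of such a difference.

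The other differences were smaller. ATP5PO differed by -13.1 points by fold enrichment but by -2.05 by −log10 q, staying in the top 5 percent of the list on the latter scale. ATP5MC1 went the other way, with 14.1 points by fold enrichment and 6.19 by −log10 q, and ATP5PB likewise with 7.77 and 3.92. The differences by fold enrichment were -8.43 points for ATP5MG, -6.47 for ATP5PF, -3.83 for ATP5MC2 and -2.85 for ATP5MC3, and those by −log10 q ran from -1.67 to 1.04 for these 4. ATP5PD, at -0.503 and 0.997, and ATP5ME, at 0.554 and 0.257, differed by less than 1 point on both scales. Over all those coding genes the central 90 percent of differences by fold enrichment ran from -16.4 to 17.6 points, a range that ATP5MF alone among the 10 left.

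**Figure D4:**
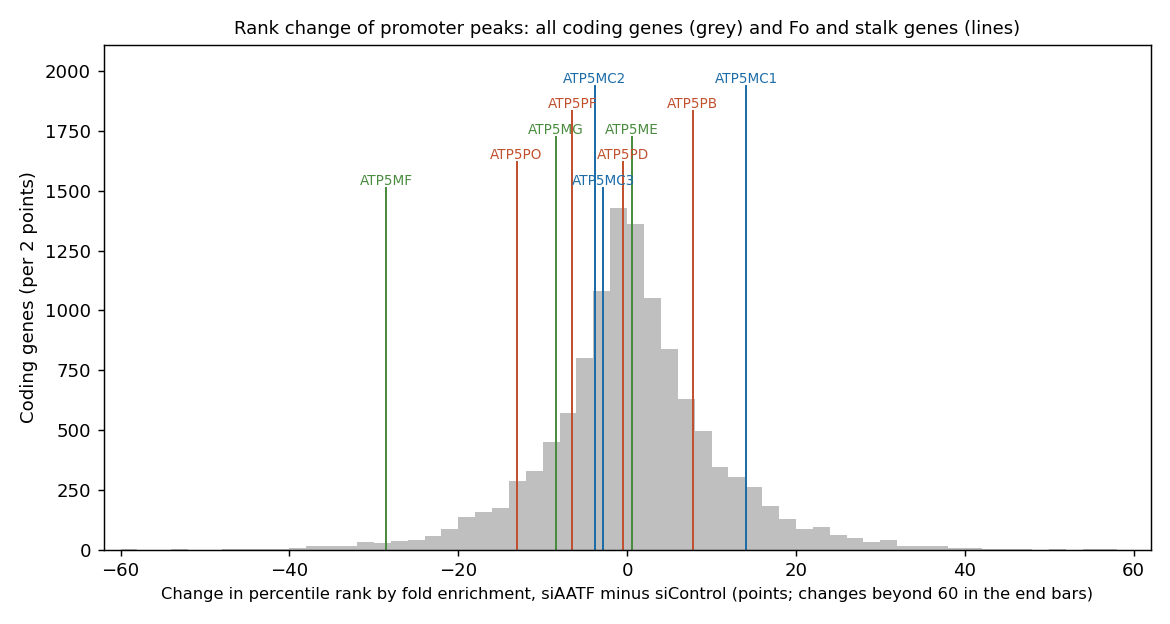
Histogram of the difference in percentile rank by fold enrichment, siAATF minus siControl, over 11774 coding genes with a promoter peak in both lists (grey, per 2 points), with each Fo and stalk gene as a vertical line whose height carries no value. The lines run from -28.6 points for ATP5MF to 14.1 points for ATP5MC1, with the others between -13.1 and 7.77.

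By the median, the presence of a core also went with smaller differences. By fold enrichment the median absolute difference was 5.15 points for the 6 genes with a core of up to 1 mismatch and 10.9 points for the 4 without. Over all coding genes the corresponding medians were 3.13 and 6.12 points. Among all coding genes, 1.32% of those with a core and 8.24% of those without one differed by more than 20 points. Among the 10 genes ATP5MF alone did, and the other genes without a core stayed under 20 points, as did the 6 with one. ATP5PO (-13.1) and ATP5MG (-8.43), with a core, differed further than ATP5PB (7.77) and ATP5PD (-0.503), without one, but less than ATP5MC1 and ATP5MF. The part of peak strength in these medians was not tested, and the genes without a core also had the lower median −log10 q.

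Shared promoters were common among these genes. The promoter peak was also the promoter peak of another coding gene for 6 of the 10 in each list, beside 24.7% of coding genes with a promoter peak in each. Head-to-head partners were WDR77, a component of the arginine methylation complex, 208 bases upstream of ATP5PB (start at -208), KCTD2 at -256 from ATP5PD, GABPA at -68 from ATP5PF and MYL5, a myosin light chain gene, at -266 from ATP5ME. GABPA encodes the DNA-binding subunit of GABP, also called NRF-2, an ETS family factor that itself acts on genes for respiratory chain proteins. All 4 partner starts were covered by the peak in both lists.

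At ATP5PB the siControl peak midpoint was 124 bp from the WDR77 start and 332 bp from the ATP5PB start, so it lay nearer to the partner. At ATP5PF it was 287 bp from the GABPA start and 355 bp from its own. At ATP5ME it was 79 bp from the MYL5 start and 187 bp from its own, whereas at ATP5PD it was 293 bp from KCTD2 and 37 bp from its own start. From peaks alone it cannot be told apart which of the 2 genes a peak serves.

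ATP5MF and ATP5MG share their starts in the same direction. The canonical start of the read-through gene ATP5MF-PTCD1 is 3 bp from that of ATP5MF, and 1 transcript of PTCD1, which encodes a mitochondrial RNA-binding protein, also begins within 1 kb of it. ENSG00000285827, a coding gene without a symbol, begins 1 bp from the ATP5MG start. The starts of ATP5PO and ATP5MG also lie near antisense lncRNA starts on both sides. Those of LINC00649 are at -74, 254, 256 and 270 from ATP5PO, and those of ENSG00000254873 at -297 and 289 from ATP5MG. The 3 c ring genes shared their promoters with no other coding gene.

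Words of other factors were searched on both strands of the siControl peaks. The YY1 word AAGATGGC was in 5 of the 10 promoter peaks, those of ATP5MC1, ATP5MC2, ATP5PD, ATP5PF and ATP5PO, beside 8.47% of all coding promoter peaks. Within the 300 bases at the peak midpoint it was in ATP5MC1 and ATP5PO only, beside 4.52%. In the canonical promoter, from 250 bases before to 50 after the start, it was in ATP5PB, ATP5PF and ATP5PO, beside 4.04% of all coding genes. The ETS word CCGGAAGT was in the peaks of ATP5PD and ATP5PF, beside 10.9%. The SP/KLF word GGGCGG was in 8 of 10, beside 92.4%, the NF-Y word CCAAT in 6 of 10, beside 50.7%, and the core's own GCGCA in all 10, beside 90.5%. GCGCA is contained in the NRF-1 core, so these counts overlap. The GC content of the 10 siControl peaks had a median of 61.3%, beside 67.7% over all coding promoter peaks, and was highest in ATP5ME at 72.3%.

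The Fo and stalk genes were set beside other genes of oxidative phosphorylation. The 5 F1 head genes, which encode the catalytic part, all had a promoter peak in both conditions. Ranked by −log10 q, they had a siControl median of 47.0 and a siAATF median of 45.6, against 77.0 and 76.7 for the Fo and stalk genes. ATP5F1B, the catalytic beta subunit, had a −log10 q of 3.32 and 3.93, below each Fo and stalk gene, and ATP5F1C, the central gamma subunit, had 48.7 and 40.6. ATP5F1A, the alpha subunit, was the only F1 head gene to differ by more than 20 points by fold enrichment, at -20.4. By fold enrichment the F1 head median was also the lower, at 64.2 and 43.8. ATP5F1D was near the bottom of both lists on that scale, at rank 0.550 and 0.509, but ranked 44.4 and 45.6 by −log10 q.

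Of 10 further ATP synthase genes, which encode small subunits, assembly factors and regulators, 9 had a promoter peak in both conditions. ATP5IF1, the inhibitor of ATP hydrolysis, had none. The 9 had a median rank of 93.4 in siControl and 91.4 in siAATF by the same scale, above that of the Fo and stalk genes. By fold enrichment the order was the other way, with a median rank of 71.2 and 64.2 for the 9 and 81.7 and 74.2 for the Fo and stalk genes. TMEM70, an assembly factor for the c ring, had a −log10 q of 96.2 and 79.8, higher than any of the 10. ATP5MK, a small membrane subunit, had 5.35 and 7.74. Of 61 genes for subunits of complexes I to IV, 57 had a promoter peak in both conditions, and their median rank was 75.1 in siControl and 73.6 in siAATF. NDUFB3, NDUFB5, NDUFS4 and COX7B had none. By fold enrichment the 57 had a median rank of 72.8 and 74.2. The core with up to 1 mismatch was in the peaks of 2 of the 5 F1 head genes, 5 of the 9 further ATP synthase genes and 26 of the 57 genes of complexes I to IV in each list, beside 6 of the 10 Fo and stalk genes. These differences between groups of genes were not tested.

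**Figure D5:**
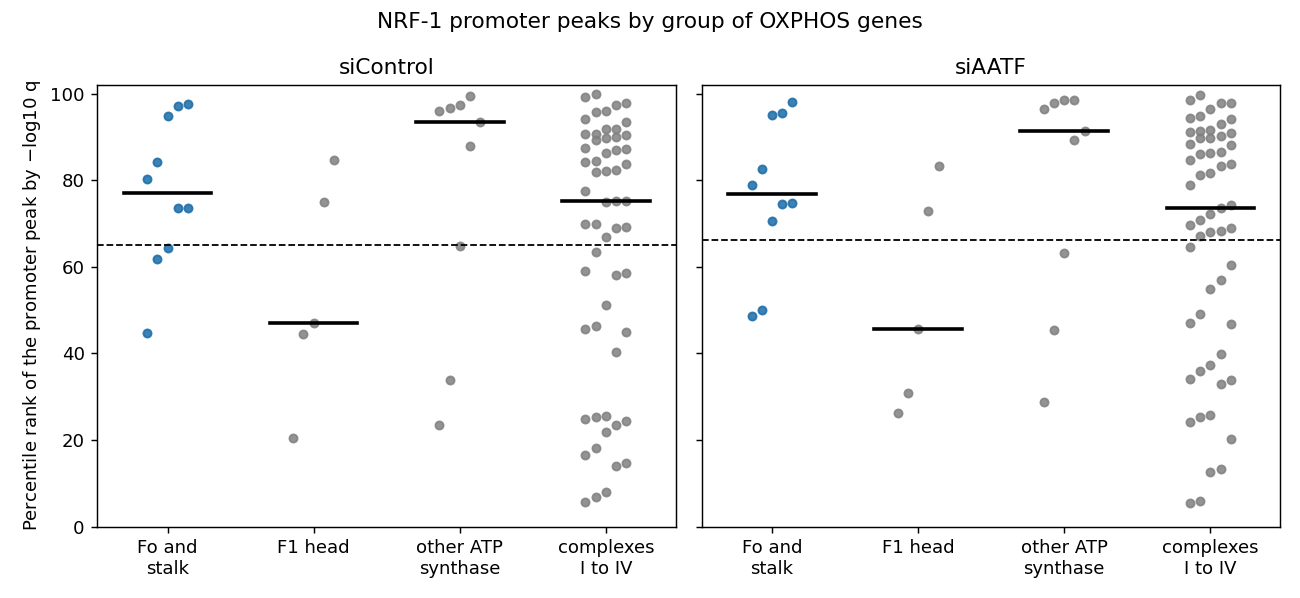
Percentile rank by −log10 q of the promoter peak of each gene in siControl (left) and siAATF (right), for the 10 Fo and stalk genes (blue) and 3 other groups (grey). Black bars are group medians and the dashed line is the median over all coding genes with a promoter peak. The Fo and stalk genes sit between 44.7 and 97.7 in siControl, and the F1 head genes reach down to 20.4.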

How the data were processed

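NRF-1 ChIPmentation peaks of 1 siControl and 1 siAATF library of U251 cells were used. Per the submitters' processing notes and the study's methods, the authors aligned paired reads to hg19 with Bowtie2 and called broad peaks with MACS2 in an ATAC-seq pipeline at default settings. How that pipeline treated the ends of reads is not given in the sources used here, and peak edges may be shifted slightly. No input library was named, and duplicates are mentioned without saying how they were combined. The fold enrichment ratio, the −log10 p and the −log10 q were deposited by the authors. The display score deposited beside them by the authors is 10 times the −log10 q, truncated, in all 18014 siControl and 18453 of 18454 siAATF peaks, and neither it nor the −log10 p was used. Read depth was unknown.

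Peaks were joined to GENCODE release 44 starts on GRCh37 in pandas 2.3.3 and numpy 2.4.6 under Python 3.11.15, with intervals from scipy 1.17.1. Where a gene had several promoter peaks, the one with the highest fold enrichment was taken. The overlap and word searches were tested on simulated peaks and sequences. Coordinates are 1-based. Genes were named by list: all 10 Fo and stalk genes, coding genes sharing their promoters, and listed OXPHOS genes, of which those without a peak are named. Single genes of the other lists were picked after their values were seen. The members and lists were chosen with earlier results of these data known. Alternatives were a stricter −log10 q, other windows and starts, the 10000 strongest peaks, other rankings and backgrounds, the nearest peak, mismatches in the core, and reciprocal overlap.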

Additional observations from a re-analysis of the deposited data

How the results depend on the processing

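No paired analysis was possible because each condition gave a single peak list. All 10 genes had a promoter peak in both lists with −log10 q of at least 5, windows of 500 bp or 2 kb, canonical starts alone, or the 10000 strongest peaks, and all 10 had an overlapping counterpart at a reciprocal overlap of 50%. Of 35 values under an alternative, 29 stayed within a set tolerance. It was 1.5 times for counts and, for medians, the span between the second lowest and second highest of the 10 genes. For median ranks that span was wide, 58.7 to 92.8 in siControl and 55.2 to 89.0 in siAATF, so it could hardly be left. The siControl median of 81.7 became 73.0 at the stricter −log10 q and 76.8 among coding promoter peaks. The siAATF median of 74.2 became 61.4 and 66.8. Ranking by −log10 q turned the median difference in rank from -3.34 to 0.615 points and the number of genes lower in siAATF from 7 to 4, and the cause was not tested. The number of genes with a core was 1 when exact in each list and 6 in each with up to 1 mismatch, which follows from the looser search. Within 100 bp of the midpoint it was 5 in siControl and 4 in siAATF. The lists differed there by ATP5PF, whose core lay 89.5 bp from the siControl midpoint and 135.5 bp from the siAATF midpoint. Unknown depth and the lack of a replicate list limit each difference between siControl and siAATF.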

Other observations

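Beyond the promoters, the spans of the 10 genes held 1 further peak in each list, in ATP5MC2. It lay at 54052958 to 54053157 on chromosome 12 in siControl, with a fold enrichment of 4.02 and a rank of 18.0, and at 54052749 to 54053103 in siAATF, with 3.58 and a rank of 9.22, and the 2 peaks overlapped. This ATP5MC2 peak was outside the canonical transcript.

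The annotation holds 41 pseudogenes named after these genes, of which 8 each are of ATP5MC1, ATP5MG and ATP5PB. A peak overlapped 1 of the 41 in each list, ATP5MGP3 on chromosome 4. It was at 24659346 to 24659800 in siControl, with a fold enrichment of 3.86 and a rank of 14.4, and at 24659395 to 24659759 in siAATF, with 4.69 and a rank of 33.8. How the reads of near-identical copies were placed is not given in the sources used here.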
